A study of Mus musculus with 4 samples.

Results

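The genes described here are 9 identity genes of excitatory cortical neurons out of the 31053 genes counted in cultured mouse cortical neurons. They were taken as a set of names, chosen with earlier results of these data known. All 9 were matched to the count tables by Ensembl identifier. The set holds the deep-layer factors Tbr1, Bcl11b and Fezf2, the upper-layer factors Cux1 and Cux2, the neuronal basic helix-loop-helix factors Neurod2 and Neurod6, and the vesicular glutamate transporters Slc17a7 (VGLUT1) and Slc17a6 (VGLUT2). All 9 passed the filter on low counts, which left 12336 genes for testing.

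Wild-type primary cortical neurons gave 2 libraries of RPS2 eCLIP immunoprecipitate (RPS2 IP) and 2 of total RNA. In eCLIP, RNA is crosslinked to protein, trimmed with RNase I and recovered with an antibody, here one that binds RPS2 in the small subunit of the ribosome. The study read translational efficiency from the count of a gene in the IP divided by its count in total RNA, and the comparison below asks how each identity gene stood on that ratio. The methods describe neurons from late-embryonic C57BL/6J cortices, with floxuridine added to limit dividing cells, and total RNA taken from the samples before the pulldown. No label states that libraries with the same replicate number came from the same sample. That pairing is assumed here, and same-numbered libraries are called a culture, which gives 2 cultures. The word culture below therefore stands for a shared replicate number. The labels name rRNA depletion for the IP libraries alone. If they hold, an effect of depletion cannot be told apart from the IP.

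The cortex is built from layers of excitatory neurons, and these factors mark where a neuron belongs. Neurons of the deep layers are born first and depend on Tbr1, Bcl11b (CTIP2) and Fezf2 to send axons to the thalamus, brainstem and spinal cord, whereas later-born upper-layer neurons carry Cux1 and Cux2 and connect mostly within the cortex. NEUROD2 and NEUROD6 act in nearly all postmitotic excitatory neurons of the cortex. VGLUT1 and VGLUT2 load glutamate into synaptic vesicles, with VGLUT1 the main form in mature cortex and VGLUT2 known from thalamus and from the young cortex.

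Several of these genes are paralogues, and a read that aligned to more than 1 gene was not counted. The longest stretches shared by the coding sequences of the transporters and of the Cut homeobox genes are printed here, to show how much identical sequence a read could meet. Neurod2 and Neurod6 shared at most 11 bases, which are not printed. Capitals mark the shared bases and lower case marks 10 flanking bases on each side (GENCODE M21, mm10). The transporters shared 21 bases in exon 2 of the longest coding transcript of each, at chr7:45168896-45168916 (plus strand) for Slc17a7 and chr7:51625462-51625482 (plus strand) for Slc17a6.
Slc17a7: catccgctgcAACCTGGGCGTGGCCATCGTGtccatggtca
Slc17a6: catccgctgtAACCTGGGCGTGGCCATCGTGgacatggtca
The Cut homeobox genes shared 23 bases, at chr5:136312821-136312843 (minus strand) for Cux1 and chr5:121873835-121873857 (minus strand) for Cux2.
Cux1: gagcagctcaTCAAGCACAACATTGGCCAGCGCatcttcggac
Cux2: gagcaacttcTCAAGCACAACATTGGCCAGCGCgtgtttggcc
Words of 50 bases, taken as a stand-in for a read, were then sought in the transcripts of all other genes. Cux1 shared 1.97% of its words, Bcl11b 0.270%, Cux2 0.197% and Tbr1 0.146%, and the other 5 genes shared 0. None of the 9 shared an exonic base on the same strand with another counted gene.

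Library totals ran from 4899718 to 16460545 counts, and the 9 genes together took 0.111% and 0.142% of the IP counts and 0.127% and 0.161% of the total RNA counts. A single lincRNA gene, Gm42418, took 15.3% to 42.6% of a library, so levels are given as CPM (counts scaled to the TMM-adjusted library size) and, where genes are compared with each other, per kilobase of annotated exons (RPKM). On the CPM scale the 9 genes summed to 1318 and 1266 in the IP and to 1493 and 1295 in total RNA. Same-numbered libraries deviated together from their group means across genes, with a Pearson correlation of 0.733. Each comparison is therefore given both with the 2 libraries of a group as unpaired replicates and with the replicate number as a block. Nothing states that the 2 cultures came from separate dissections, so p-values of the unpaired fit measure the spread between these samples. Those of the blocked edgeR fit rest on a spread shared by all genes, as given below.

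The 9 levels spanned 2 orders of magnitude and kept 1 order in both groups. In total RNA the mean level was 135 ± 2.69 RPKM for Slc17a7 (SD, n = 2 for every mean here), 27.0 ± 2.26 for Cux2 and 12.8 ± 0.378 for Neurod2. Tbr1 at 9.91 ± 2.92, Cux1 at 9.60 ± 3.74 and Bcl11b at 9.19 (7.07 and 11.3 in the 2 libraries) formed a middle group whose neighbours overlapped between libraries. Slc17a6 followed at 4.91 ± 2.40, and Neurod6 at 1.52 ± 0.199 and Fezf2 at 1.24 ± 0.527 closed the order and overlapped. Among all genes tested, the total RNA level of Slc17a7 lay at percentile 99.0, that of Cux2 at 90.8, that of Tbr1 at 74.9 and that of Fezf2 at 23.0. The IP gave the same sequence of genes, from 142 ± 13.6 RPKM for Slc17a7 to 1.53 ± 0.215 for Fezf2, with Bcl11b and Slc17a6 overlapping as well.

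**Figure D1:**
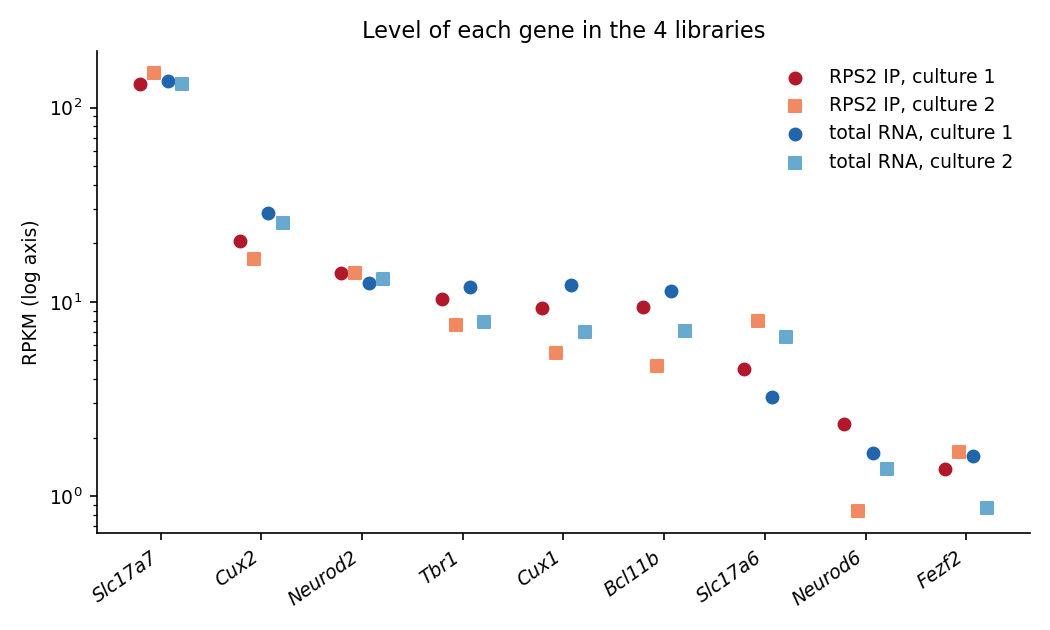
Level of each gene in RPKM (log axis) in the 4 libraries, with red for RPS2 IP, blue for total RNA, circles for culture 1 and squares for culture 2. Slc17a7 stands above the other 8 genes in every library, Cux2 comes next, and Fezf2 and Neurod6 lie lowest.

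In the unpaired fit 0 of the 9 genes were called higher or lower in the IP (edgeR quasi-likelihood test, Benjamini-Hochberg adjustment over all genes, threshold 0.05). The same fit called 0% of the genes tested in either direction, and at an unadjusted p under 0.05 it held 349 genes, 0 of them identity genes. DESeq2 without a block called 5 genes, none an identity gene. With the replicate block, Cux2, Cux1 and Bcl11b were called lower in the IP and none was called higher. In that fit 7.55% of all genes tested were called lower and 6.63% higher. The median count per library was 452.5 for the 9 genes and 149 over all genes tested, so these shares are not matched in depth. The block leaves 1 residual degree of freedom, and edgeR took the dispersion wholly from 1 trend shared among all genes. A gene's own spread therefore did not enter its adjusted p-value in that fit.

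Tbr1 (ENSMUSG00000035033, chr2:61802930-61814114, plus strand) encodes a T-box factor needed by corticothalamic neurons of layer 6. It was counted 787 and 466 times in the IP against 295 and 262 times in total RNA, which gave 56.9 and 41.9 CPM in the IP against 65.7 and 43.1 in total RNA. The groups overlapped, and culture 1 was the higher one in both. Within the cultures the log2 ratio of IP to total RNA was -0.21 and -0.04. The fold change was -0.14 ± 0.30 (log2, SE) in the unpaired fit and -0.13 ± 0.12 with the block (adjusted p = 0.547), with a 95% interval of -0.36 to 0.11.

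Bcl11b (ENSMUSG00000048251, chr12:107910403-108003602, minus strand) encodes a zinc-finger factor of subcerebral projection neurons and is also found in many interneurons. Its counts were 1055 and 420 in the IP against 412 and 349 in total RNA. In CPM these were 76.3 and 37.7 against 91.7 and 57.4, so that the IP lay below total RNA in both cultures while the groups overlapped. The log2 ratio was -0.27 in culture 1 and -0.60 in culture 2. With the block Bcl11b was 1.34-fold lower in the IP (log2 -0.42 ± 0.12, edgeR adjusted p = 0.00362). DESeq2 with the block gave an adjusted p of 0.100.

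Fezf2 (ENSMUSG00000021743, chr14:12342094-12348189, minus strand), which specifies corticospinal neurons, was the least abundant gene per length. It had 58 and 57 counts in the IP against 22 and 16 in total RNA, and counting error alone put the last of these between 9.15 and 26.0 (95% exact Poisson interval). Its levels of 4.19 and 5.12 CPM in the IP overlapped the 4.90 and 2.63 CPM in total RNA. The cultures pointed opposite ways, with log2 ratios of -0.21 and 0.90, and the 95% interval with the block ran from -0.39 to 1.08. A difference for Fezf2 was not detectable at this depth.

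Cux1 (ENSMUSG00000029705, chr5:136248135-136567490, minus strand) encodes a homeodomain factor of upper-layer neurons and, from alternative transcripts of the same locus, the Golgi protein CASP. The annotation holds 14 transcripts of Cux1, and gene counts do not tell them apart. Counts were 2581 and 1221 in the IP against 1101 and 848 in total RNA. The levels were 187 and 110 CPM in the IP against 245 and 139 in total RNA, which put the IP lower within each culture while the groups overlapped. The log2 ratios were close to each other, at -0.39 and -0.35. With the block Cux1 was 1.29-fold lower in the IP (log2 -0.37 ± 0.10, edgeR adjusted p = 0.00389).

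Cux2 (ENSMUSG00000042589, chr5:121856366-122050102, minus strand), the paralogue found chiefly in upper-layer neurons, showed the largest difference among the 9 that was called. It was counted 2881 and 1857 times in the IP against 1295 and 1558 times in total RNA. Both IP libraries, at 208 and 167 CPM, lay below both total RNA libraries, at 288 and 256 CPM. Such a complete separation downwards was seen for 14.9% of all genes tested, and Cux2 was the only one of the 9 to show it. The log2 ratios were -0.47 and -0.62. With the block Cux2 was 1.46-fold lower in the IP (log2 -0.54 ± 0.10, edgeR adjusted p = 3.0e-06). In the unpaired fit, edgeR gave -0.54 ± 0.22 with an adjusted p of 1.00.

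Neurod2 (ENSMUSG00000038255, chr11:98325415-98329648, minus strand) had 610 and 491 counts in the IP against 177 and 250 in total RNA. Its level was the most even of all, at 44.1 CPM in each IP library and at 39.4 and 41.1 CPM in total RNA. The IP lay above total RNA without overlap, but by little, with log2 ratios of 0.16 and 0.10. Such a separation upwards was seen for 16.9% of all genes tested. The blocked fold change was 0.13 ± 0.13 (log2, SE; edgeR adjusted p = 0.566), with a 95% interval of -0.12 to 0.38.

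Neurod6 (ENSMUSG00000037984, chr6:55677822-55681263, minus strand) was far scarcer than its partner. Its counts were 70 and 20 in the IP against 16 and 18 in total RNA, or 5.06 and 1.80 CPM against 3.56 and 2.96 CPM. The 2 IP libraries lay on either side of total RNA, and the log2 ratios of 0.48 and -0.66 had opposite signs. The direction of the mean also turned with the fit, from 0.086 ± 0.61 (log2, SE) unpaired to -0.036 ± 0.42 with the block, so no direction is given for Neurod6.

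Slc17a7 (ENSMUSG00000070570, chr7:45163949-45176142, plus strand) was by far the most abundant of the genes. It had 9854 and 9082 counts in the IP against 3310 and 4359 in total RNA, which is 712 and 816 CPM against 737 and 717 CPM. The IP libraries lay on either side of total RNA. With log2 ratios of -0.05 and 0.19 and a blocked 95% interval of -0.13 to 0.27, the blocked fold change was 0.07 ± 0.10 (log2, SE; edgeR adjusted p = 0.717). With the GC and length offset it was 0.25 (edgeR adjusted p = 0.118), with a 95% interval of 0.05 to 0.45.

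Slc17a6 (ENSMUSG00000030500, chr7:51622006-51671119, plus strand) had 335 and 481 counts in the IP against 78 and 217 in total RNA. Its levels were 24.2 and 43.2 CPM in the IP against 17.4 and 35.7 in total RNA. The IP was higher within each culture, by log2 ratios of 0.47 and 0.27, although the groups overlapped and the cultures differed by more than IP and total RNA did. The blocked fold change was 0.36 ± 0.15 (log2, SE) with an edgeR adjusted p of 0.0862, which missed the threshold.

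**Figure D2:**
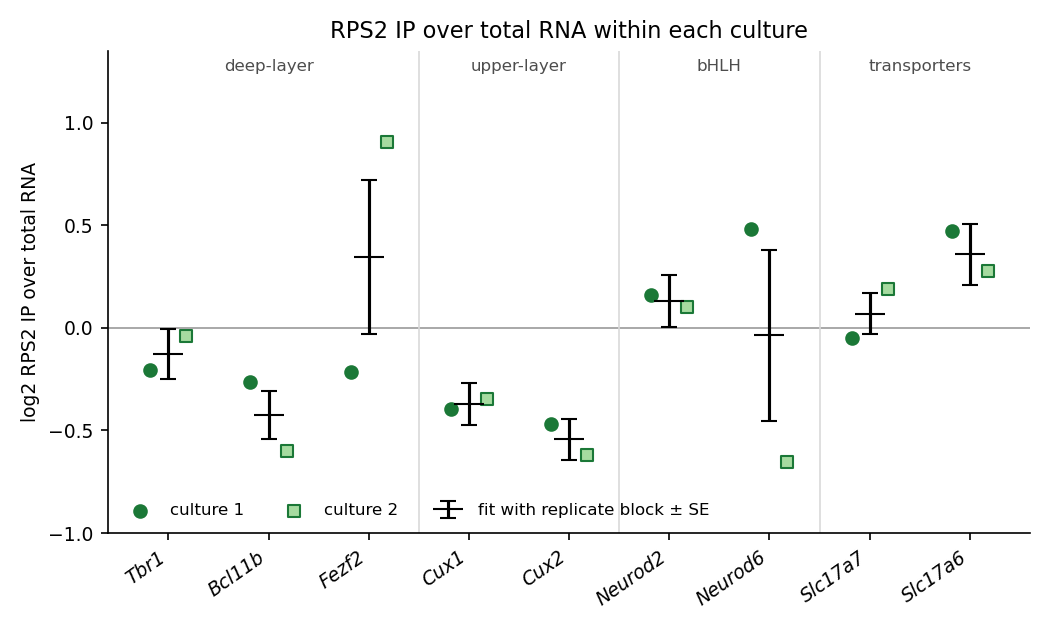
Log2 ratio of RPS2 IP to total RNA for each gene in culture 1 (dark circles) and culture 2 (light squares), with the estimate of the fit with the replicate block as a cross bar and its SE as whiskers. Bcl11b, Cux1 and Cux2 lie below 0 in both cultures and were called lower in that fit, Neurod2 and Slc17a6 lie above 0 in both without a call, and the scarce Fezf2 and Neurod6 are on opposite sides of 0 in the 2 cultures.

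Counted over the set, 4 of 9 genes (Tbr1, Bcl11b, Cux1 and Cux2) had a lower level in the IP in both cultures, beside 32.2% of all genes tested, and 2 of 9 (Neurod2 and Slc17a6) had a higher one in both, beside 34.3% of all genes. The median log2 fold change with the block was -0.036 over the 9 genes and 0.011 over all genes tested.

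The ratio of IP to total RNA fell with GC content across genes, with a Spearman correlation of -0.315 over the 12328 genes whose GC content was known (same libraries throughout, genes not independent). Cux2, Bcl11b and Cux1 had transcripts of 58.4%, 55.4% and 52.8% GC, against a median of 50.5% for all genes tested. The ratio also fell with exonic length, with a Spearman correlation of -0.171 over all genes tested. The exonic lengths of these 3 genes were 10082, 8111 and 20024 bases, against a median of 4672 bases. When the blocked fit carried an offset for GC content and exonic length in each library, the call was lost for all 3. Cux2 was then at -0.18 (log2, edgeR adjusted p = 0.308), Bcl11b at -0.20 (0.327) and Cux1 at -0.11 (0.613). That fit called 2.62% of the genes lower and 4.82% higher, with 0 of the 9 in either class. Neurod2, the richest of the 9 at 58.7% GC, was at 0.13 (log2) with the block and at 0.29 with this offset. Slc17a7, at 56.6% GC, was at 0.07 with the block and at 0.25 with the offset. The plot of the ratio against GC content shows the values without the offset. In the coding sequence the third codon position was 84.1% GC in Neurod2 and 73.3% in Slc17a7, beside 74.1% in Cux2, 76.7% in Bcl11b and 62.8% in Cux1. The offset takes GC content and length together, so it cannot tell their parts in the 3 calls apart. Neither part was tested beyond this offset.

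**Figure D3:**
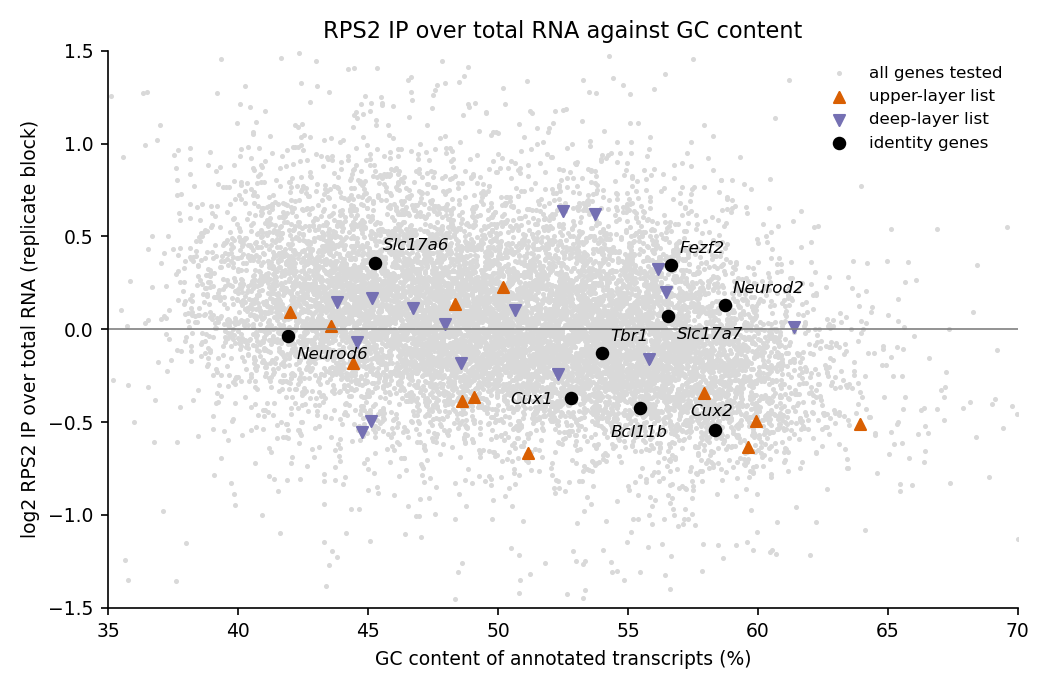
Log2 RPS2 IP over total RNA from the fit with the replicate block (vertical) against the GC content of each gene's annotated transcripts in percent (horizontal), for all genes tested (grey), the upper-layer list (triangles up), the deep-layer list (triangles down) and the 9 identity genes (black, named). The grey cloud slopes down to the right (Spearman correlation -0.315), and Cux2 at 58.4% GC lies below 0 while Neurod2 at 58.7% lies above it. Genes beyond the axis limits are not drawn.

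The layer factors were compared with each other on both scales. Per length, Cux1 and Cux2 together exceeded Tbr1, Bcl11b and Fezf2 together in every library. The fold was 1.64 and 2.05 in total RNA and 1.42 and 1.58 in the IP. The upper-layer share was thus the smaller one in the IP, and both IP values lay below both total RNA values. As log2 ratios of IP to total RNA, the mean of the upper-layer pair lay 0.20 below that of the deep-layer trio in culture 1 and 0.57 below in culture 2, and the mean difference was -0.39 (SD 0.26, n = 2 cultures). With the GC and length offset it was -0.21. A single deep-layer gene, Fezf2, with 16 to 58 counts, held the highest value of the trio in culture 2, at 0.90. Bcl11b, also a deep-layer factor, had a ratio of -0.60 in that culture, next to -0.62 for Cux2. No test was made of this score.

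Longer lists of layer genes were then read in the same fits. These lists, like those in the paragraphs below, were chosen with earlier results of these data known. Their counts of calls are therefore descriptions. Of 12 further upper-layer genes, all of which passed the filter, 7 were called lower and 0 higher in the IP with the block, beside 7.55% and 6.63% of all genes tested, and 8 were lower in both cultures. The median log2 fold change of the list was -0.35. Its genes had a median of 726 counts per library, against 149 over all genes tested. The shares over all genes are therefore not matched to this list in depth. The largest differences were those of the POU-domain factor Pou3f3 (log2 -0.66 ± 0.11, edgeR adjusted p = 4.6e-08), the semaphorin receptor Plxnd1 (-0.64 ± 0.10, 2.4e-08), the POU-domain factor Pou3f1 (-0.51 ± 0.10, 1.6e-05) and the LIM-homeobox factor Lhx2 (-0.49 ± 0.13, 0.0021). Unc5d and Mdga1 were also called, and are named after their values were seen. Pou3f1 and Lhx2 are also expressed beyond upper-layer neurons. With the GC and length offset 3 of the 12 were called lower, Pou3f3 and Plxnd1 among them. In the unpaired fit 0 of the 12 were called.

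Of 16 further deep-layer genes, all of which also passed the filter, 0 were called in either direction with the block, with a median log2 fold change of 0.064 and 4 genes lower in both cultures. The 3 with the highest mean CPM, a scale that does not allow for length, were Crim1, which encodes a transmembrane protein of corticospinal neurons (-0.24, edgeR adjusted p = 0.236), the nuclear receptor Nr4a2 (-0.18, 0.421) and the SOX factor Sox5 (0.026, 0.946). The lists differed in depth, with a median of 71.4 counts per library for the deep-layer genes and 726 for the upper-layer genes, so that 7 of 12 against 0 of 16 does not show that the lists differ. Their median GC content was 49.6% in both, and their median exonic length was 4350 bases for the deep-layer and 7045 bases for the upper-layer list. The difference between the lists was not tested.

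Genes shared by excitatory neurons of all layers were read next. Of 16 genes of the glutamatergic lineage, 13 were tested, of which the blocked fit called 1 higher and 2 lower, beside 6.63% and 7.55% of all genes tested. Nrn1, which encodes the secreted synaptic protein neuritin, was 1.28-fold higher in the IP (log2 0.36 ± 0.10, edgeR adjusted p = 0.0082). The basic helix-loop-helix factor Bhlhe22 was 1.44-fold lower (-0.53 ± 0.12, edgeR adjusted p = 0.00040). With the GC and length offset only Bhlhe22 among the 13 was called. The median of the list was 0.094 with the block.

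The last list held genes that make, carry and recycle glutamate. Of 11 genes, 10 were tested, and the blocked fit called 2 higher and 0 lower, beside 6.63% and 7.55% of all genes tested, with a median log2 fold change of 0.21. They were Slc38a2, a transporter of glutamine (0.45 ± 0.12, edgeR adjusted p = 0.0036), and Slc1a3, the glial glutamate transporter GLAST (0.34 ± 0.10, 0.0084). Slc1a3 is an astrocyte gene and also counts among the astrocyte markers below. With the GC and length offset 4 of the 10 were called higher, beside 4.82% of all genes tested. Slc17a8, the third vesicular glutamate transporter, had 12 and 11 counts in the IP against 2 and 5 in total RNA and did not pass the filter.

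The 2 vesicular glutamate transporters kept their rank in every library. Per length, Slc17a7 exceeded Slc17a6 by 42.5-fold and 20.1-fold in total RNA of cultures 1 and 2 and by 29.5-fold and 18.9-fold in the IP. Culture made more of this ratio than the IP did. On the scale of IP over total RNA, Slc17a7 lay 0.52 below Slc17a6 in culture 1 and 0.09 below in culture 2 (mean -0.31, SD 0.31, n = 2, log2), a difference no larger than its spread. With the GC and length offset the mean was -0.0071, and the 2 genes had transcripts of 56.6% and 45.2% GC.

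For Tbr1, Bcl11b, Cux1 and Slc17a6 the cultures differed from each other by more than IP from total RNA did in either culture. In total RNA, Slc17a6 was higher in culture 2, by 1.03 on the log2 scale, and Neurod2 was level at 0.06 and Slc17a7 at -0.04. Culture 2 stood lower for Cux1 (-0.81), Bcl11b (-0.68), Tbr1 (-0.61), Neurod6 (-0.25) and Cux2 (-0.17). The IP libraries gave the same sign, at 0.83 for Slc17a6, -0.77 for Cux1, -1.01 for Bcl11b, -0.44 for Tbr1, -1.39 for Neurod6 and -0.32 for Cux2. Fezf2 had opposite signs, -0.84 in total RNA and 0.27 in the IP. With 1 culture on each side there is no test of these differences, and across all genes the SD of the same log2 ratio was 0.783 in total RNA, with 14.2% of genes beyond 1 in either direction.

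**Figure D4:**
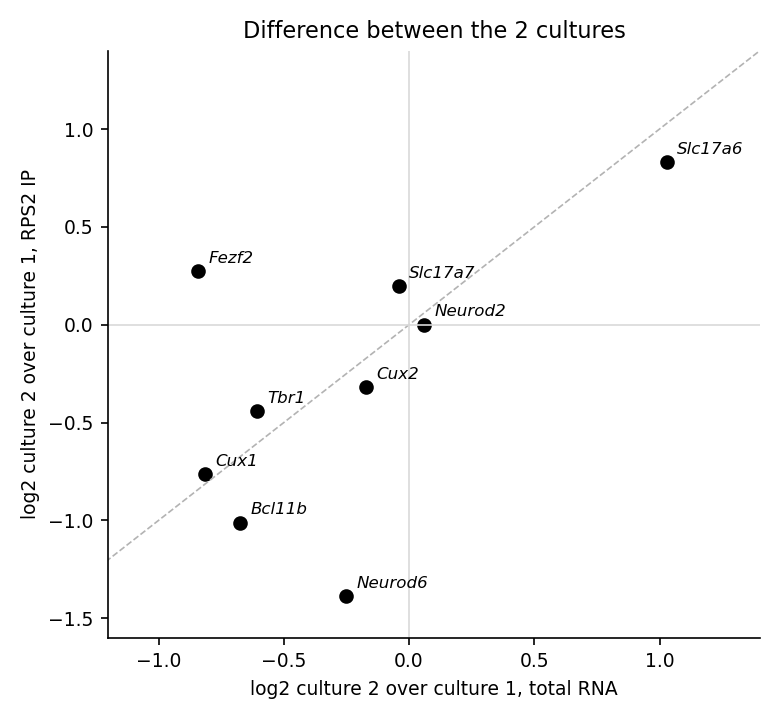
Log2 ratio of culture 2 to culture 1 in the RPS2 IP (vertical) against the same ratio in total RNA (horizontal), 1 point per gene, with the diagonal of equal ratios dashed. Slc17a6 is alone at the upper right (1.03 and 0.83), Cux1, Bcl11b and Tbr1 lie at the lower left, Neurod2 and Slc17a7 are near the origin, and Fezf2 is the gene farthest above the diagonal.

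Markers of other cells moved with the culture. In these bulk samples fewer cells of a type and less RNA per cell cannot be told apart. The summed level of 8 astrocyte markers, of which 7 were tested, was 2168 and 1855 CPM in the IP and total RNA of culture 1 and 716 and 716 CPM in culture 2. The 8 microglia markers summed to 85.2 and 90.2 CPM in culture 1 and to 7.28 and 5.92 CPM in culture 2. Cajal-Retzius neurons, which also make Tbr1, had 5 markers at 362 and 385 CPM in culture 1 and 170 and 177 CPM in culture 2, nearly all from Reln, which interneurons make as well, while Ebf2 was at 0 in every library. Vascular and meningeal markers (6 genes) summed to 39.0 and 43.6 CPM in culture 1 and 7.99 and 10.7 in culture 2, with Cldn5 at 0. The 5 hippocampal and thalamic markers summed to 145 and 149 CPM in culture 1 and to 55.1 and 68.5 CPM in culture 2. Most of that sum was Zbtb20, at 124 and 134 CPM in culture 1 and 43.3 and 52.9 CPM in culture 2. The thalamic markers Lhx9 and Gbx2 were under 1 CPM in every library. Tcf7l2, from the same list, was at 7.66 and 3.56 CPM in the IP and total RNA of culture 1. In culture 2 it was at 1.80 and 2.96 CPM. The part of these cells in the differences between cultures was not tested.

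The 13 GABAergic markers, all tested, summed to 1508 and 1281 CPM in the IP and 1306 and 1293 CPM in total RNA. Interneuron RNA was thus present beside that of the excitatory neurons. With the block 0 of the 13 were called in either direction. Over all genes tested 6.63% were called higher and 7.55% lower, the shares to set beside each list here. Among the astrocyte markers Slc1a3 and the water channel Aqp4 (0.49 ± 0.12, edgeR adjusted p = 0.00085) were higher in the IP with the block, and the glial factor Sox9 (-0.65 ± 0.12, 1.5e-06) was lower. Oligodendrocyte lineage markers (8 genes, 5 tested) summed to between 66.4 and 88.8 CPM. Progenitor and cycling markers (6 genes, 3 tested) summed to between 80.7 and 112 CPM, and 0 of either list were called with the block. Most of the latter sum was Nes, at 46.5 to 68.0 CPM, and Sox2, at 11.2 to 53.0 CPM. In total RNA the log2 ratio of culture 2 to culture 1 was 0.40 for Nes and -1.94 for Sox2. The cycling markers Mki67 and Top2a had 0 to 4 and 1 to 8 counts per library. With the GC and length offset the progenitor marker Sox2 was called lower (log2 -0.51, edgeR adjusted p = 0.017), beside 2.62% of all genes tested.

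Tbr1 was compared with every gene that had at least 100 counts in each library, by the distance between log2 CPM values centred on their mean over the 4 libraries. Of 5002 such genes, the nearest were St3gal2, a sialyltransferase gene, at a distance of 0.042, Wwc2 at 0.056 and Lrp10 at 0.066, where the median distance was 0.634. They share with Tbr1 a higher level in culture 1, most of all in its total RNA. The nearest of the other identity genes was Cux1 at 0.367, in place 892. With 4 libraries such likeness is a description of these samples.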

How the data were processed

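The authors deposited raw read counts per gene, whole numbers without normalisation, with exonic lengths. Per the file headers they were made with featureCounts 1.5.3 in stranded mode on mm10 gene models, without options for reads at several loci or in several genes. The methods name cutadapt and STAR. Since duplicate reads were not stated to be removed, intervals on counts cover counting error only.

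The members and gene lists were chosen with earlier results of these data known. Of 31053 identifiers 31011 carried a GENCODE M21 symbol. The fits were made in edgeR 4.0.16 (R 4.3.3): filterByExpr chose the genes, TMM scaled the libraries, and IP was tested against total RNA two-sided (glmQLFit, glmQLFTest) with Benjamini-Hochberg adjustment over 12336 genes at 0.05. Ratios within a culture used a prior count of 2. Pairing by replicate number is stated in no label. It was inferred from the methods, which take total RNA from the IP samples, and same-numbered libraries deviated together (Pearson correlation 0.733). The blocked biological coefficient of variation was 7.93%, against 29.7% unpaired. DESeq2 1.42.0 was an alternative, and the GC and length offset used mgcv 1.9.3. The fits were tested on simulated data. Named genes were all 9 members, Slc17a8, and from each list up to 4 called genes with the largest change, otherwise the 3 highest in mean CPM. Library totals of 4899718 to 16460545 counts set the precision. Single-gene values of some list members are left out of the text.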

Additional observations from a re-analysis of the deposited data

How the results depend on the processing

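The replicate block moved the counts of calls most. Unpaired, 0 genes were called higher and 0 lower. With the block these were 818 and 931, with DESeq2 158 and 382, with library size alone in place of TMM 283 and 878, with at least 10 counts in every library 878 and 926, and with an offset for GC content and exonic length 594 and 323. With the block and 2 settings chosen after seeing the data they were 679 and 847 (counts thinned to the smallest library) and 820 and 947 (without Gm42418). Without the block, DESeq2 called 5 lower, no filter gave 14 lower, and leaving out 1 library gave 1 to 8 lower. Of the 9 identity genes the block called 3 lower, as it did with library size alone, with at least 10 counts, thinned and without Gm42418, while DESeq2 with the block called 2, Cux2 and Cux1, and the offset 0. The summed level of the 9 in total RNA was 1394 CPM and 2059 CPM without Gm42418. Turned directions were judged against the unpaired fit, which called 0 genes, so they cannot show whether a called direction holds. Bcl11b and Cux1, called lower with the block, did turn in unpaired fits without 1 library. Bcl11b was at 0.030 without RPS2 IP replicate 2 and Cux1 at 0.087 without total RNA replicate 1. A fit without 1 library holds both cultures in 1 group only, so the difference between cultures enters its fold change. Within cultures 1 and 2 the log2 ratios of IP to total RNA were -0.27 and -0.60 for Bcl11b and -0.39 and -0.35 for Cux1. Neurod6 was at -0.036 with the block and at -0.11 (DESeq2), -0.11 (library size), -0.011 (10 counts), -0.37 (offset), -0.28 (thinned) and -0.037 (without Gm42418) in the other blocked fits, and at -0.080 (library size) and -0.22 (thinned) unpaired. Slc17a7 was at -0.014 with the block and library size and at -0.0040 with library size alone. Leaving out 1 library from the unpaired fit, where the lone sample is assumed to vary like the others, gave ranges of -0.41 to 0.20 for Tbr1, -0.98 to 0.030 for Bcl11b, -0.077 to 0.82 for Fezf2, -0.81 to 0.087 for Cux1, -0.85 to 0.63 for Neurod6, -0.035 to 0.16 for Slc17a7 and -0.14 to 0.95 for Slc17a6. Cux2 stayed between -0.71 and -0.39 and Neurod2 between 0.10 and 0.16. The cause of these shifts was not tested. With 2 cultures, and 16 to 70 counts per library for Fezf2 and Neurod6, depth limits what could be seen of the scarce genes.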
